A study of Homo sapiens with 12 samples.

Results

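The 45 genes described here are type I interferon-stimulated genes, chosen by name from the 58735 genes of the deposited tables. All 45 were found by symbol. They were measured by RNA-seq of total RNA in MDA-MB-231, an established cell line from a human triple-negative breast tumour. Each of 4 groups had 3 libraries, and the groups were cells with a guide RNA against UFM1 (sgUFM1), cells with a guide against UFL1 (sgUFL1), control-guide cells set beside sgUFM1 (sgCtrl to sgUFM1) and control-guide cells set beside sgUFL1 (sgCtrl to sgUFL1). The submitters call the guide cells both knockdown and knockout cells, and the comparisons ask how loss of either gene changes the transcriptome. UFL1 is the ligase that attaches UFM1, a small ubiquitin-like protein, to other proteins. No drug, interferon or other treatment appears in the labels, and all groups share the cell line. Whether a group is 1 clone or a pool of edited cells, and whether its libraries came from separate cultures, is not given in the sources used here. The p-values therefore rest on library-to-library spread, part or all of which may be technical.

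Type I interferons are secreted when cells detect foreign or misplaced nucleic acid. They bind the receptor pair IFNAR1 and IFNAR2, whose kinases JAK1 and TYK2 phosphorylate STAT proteins. Together with IRF9 these form the factor ISGF3, which binds interferon-stimulated response elements in promoters and turns on genes that block viral translation, degrade RNA, stop virus entry or release, and tag proteins with ISG15. Many of these genes are also transcribed without interferon, through IRF1, IRF3 or IRF7.

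The count table and the FPKM table do not give the same group name to the same libraries. Over 12259 genes, each FPKM column was proportional to 1 count column after correction for gene length. For 6 libraries, those of sgUFM1 and of the controls for sgUFL1, the names were the same. For the other 6 the names sgUFL1 and sgCtrl to sgUFM1 were exchanged. Set 1 below means the 3 libraries named sgUFL1 in the count table and sgCtrl to sgUFM1 in the FPKM table. Set 2 means the 3 named sgCtrl to sgUFM1 in the count table and sgUFL1 in the FPKM table. Under the count names the guide effects are sgUFM1 against set 2 and set 1 against the controls for sgUFL1, and under the FPKM names they are sgUFM1 against set 1 and set 2 against the controls for sgUFL1.

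The targeted transcripts were checked first, as CPM, the count divided by the library size in units of 1e6 after TMM scaling. UFM1 was at 37.1, 39.7 and 39.4 CPM in sgUFM1 replicates 1, 2 and 3, against 49.2, 57.3 and 54.2 CPM in set 1, 51.3, 54.8 and 55.1 in set 2, and 59.4, 65.9 and 71.0 in the controls for sgUFL1. It was lowest in the sgUFM1 libraries, by -0.47 ± 0.09 on the log2 scale (SE) against set 1, -0.47 ± 0.08 against set 2 and -0.76 ± 0.11 against the controls for sgUFL1 (edgeR quasi-likelihood test with Benjamini-Hochberg adjustment, adjusted p = 0.0102, 0.000119 and 0.00255). UFL1 was at 16.6, 19.4 and 18.1 CPM in set 1, 12.7, 11.5 and 13.1 CPM in set 2, and 19.7, 24.5 and 30.2 CPM in the controls for sgUFL1. Among these 3 groups its lowest values were in set 2, where it was lower by -1.02 ± 0.17 than in the controls for sgUFL1 (edgeR, adjusted p = 0.00166). Set 1 against the same controls gave -0.45 ± 0.17 (adjusted p = 0.13). The UFL1 and UFM1 transcripts have a low GC content, 35.7% and 34.9%, and the controls for sgUFL1 had the lowest mean GC content of counted transcripts (47.59% to 48.66%). The values of this check are given without correction for GC content, and those of UFL1 in sgUFM1 are not given here. A guide can leave the transcript in place, and a transcript level does not settle which name is right, so every comparison is given under both.

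Most promoters found for these genes carried the core of the response element. RefSeq promoters of the GRCh38.p14 build, from 250 bases before to 50 after the annotated start, were found for 37 of the 45 genes. IFIT2, IFITM2, MX2, OAS2, OASL, TRIM22, USP18 and LAMP3 were not matched. The core of the response element, searched as GAAANNGAAA on both strands with overlapping copies allowed, was in 25 of the 37 (67.6%) and in 996 of all 27305 promoters of the table (3.65%). The 4 printed here are those of IFIT1 and IFIT3, whose levels split between libraries of 1 group, of ISG15, which had the highest level per kilobase, and of IFITM1. IFITM1 was one of 4 members higher in set 2 than in the controls for sgUFL1, where 16 were lower (17.4% and 18.4% of all genes). Capitals mark the motif or its reverse complement, and the longer run in ISG15 is a pair of overlapping copies.
IFIT1, chr10:89392373-89392672, + strand: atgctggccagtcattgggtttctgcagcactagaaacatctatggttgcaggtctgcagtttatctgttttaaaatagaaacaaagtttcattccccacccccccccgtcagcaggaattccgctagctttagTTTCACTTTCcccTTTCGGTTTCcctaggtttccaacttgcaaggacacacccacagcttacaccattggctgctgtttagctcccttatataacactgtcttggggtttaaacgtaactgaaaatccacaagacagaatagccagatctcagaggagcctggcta
IFIT3, chr10:89327747-89328046, + strand: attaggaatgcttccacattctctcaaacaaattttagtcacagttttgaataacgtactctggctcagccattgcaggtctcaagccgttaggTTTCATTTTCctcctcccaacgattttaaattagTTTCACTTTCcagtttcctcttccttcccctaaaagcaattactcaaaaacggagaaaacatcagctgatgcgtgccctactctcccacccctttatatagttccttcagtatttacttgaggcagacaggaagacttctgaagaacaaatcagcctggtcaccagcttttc
ISG15, chr1:1013247-1013546, + strand: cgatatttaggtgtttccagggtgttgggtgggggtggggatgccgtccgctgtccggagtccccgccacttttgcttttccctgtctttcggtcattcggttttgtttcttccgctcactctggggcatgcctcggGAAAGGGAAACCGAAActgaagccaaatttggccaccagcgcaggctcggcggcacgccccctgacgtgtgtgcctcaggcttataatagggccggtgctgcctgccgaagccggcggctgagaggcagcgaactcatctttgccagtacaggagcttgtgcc
IFITM1, chr11:313790-314089, + strand: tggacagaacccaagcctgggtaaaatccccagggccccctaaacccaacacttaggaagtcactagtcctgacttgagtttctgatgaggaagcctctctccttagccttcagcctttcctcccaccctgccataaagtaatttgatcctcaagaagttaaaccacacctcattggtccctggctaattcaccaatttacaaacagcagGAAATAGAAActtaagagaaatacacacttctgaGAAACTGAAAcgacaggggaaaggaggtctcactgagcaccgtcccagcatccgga

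In IFIT1 the copies begin at positions -116 and -103 from the start, in IFIT3 at -156 and -122, in ISG15 at -113 and -107, and in IFITM1 at -40 and -6. Among members tested in sgUFM1 against set 2, 12 of 24 with the motif were higher and 1 lower. Of 11 without it, 5 were higher and 1 lower, where 19.3% of all genes were higher and 18.5% lower. RSAD2, which had the largest difference of any member in that comparison, had no match of these letters in its window. A match is a description of the letters only.

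Libraries held 15342793 to 18033331 counts. Of the line's mesenchymal markers, VIM was at 750.0 to 1070.0 CPM and AXL at 666 to 1020.0. A list of 9 luminal or epithelial markers summed to 235 to 239 CPM in sgUFM1, 234 to 243 CPM for set 1, 290.0 to 336 CPM for set 2 and 194 to 210.0 CPM for the controls for sgUFL1, although its members ESR1 and CDH1 stayed below 0.75 CPM in every library. Of the 7 of these tested, 2 were higher and 0 lower in set 2 than in the controls for sgUFL1 by edgeR (17.4% and 18.4% of all genes). In sgUFM1 against set 2, 0 of 7 were higher and 2 lower (19.3% and 18.5% of all genes). In set 1 against set 2, 0 of 7 were higher and 1 lower (0.705% and 1.49% of all genes). Their part in the members' results was not tested. The leukocyte markers CD3E, CD2, MS4A1 and TYROBP had no count in any library, and the sum over the leukocyte marker list was 2.99 to 3.54 CPM in sgUFM1 libraries, 3.02 to 4.05 CPM in those of set 1, 3.15 to 4.6 CPM in those of set 2 and 2.32 to 3.71 CPM in the controls for sgUFL1. Some libraries stood apart from their group. By chi-square per gene over all counts, set 1 replicate 1 was nearer to replicate 1 of the controls for sgUFL1 (15) than to its own group (20.1). Among the controls for sgUFL1, replicate 1 was nearer to set 1 replicate 1 (15) than to its own group (16.8), and replicate 2 was nearer to set 1 replicate 2 (16.8) than to its own group (20.2). Replicate 3 of those controls was at 16.8 from its own group and at 48.1 from the nearest library outside it. The mean GC content of counted transcripts was 49.09% to 49.58% in sgUFM1, 49.6% to 49.84% for set 1, 49.72% to 50.26% for set 2 and 47.59% to 48.66% in the controls for sgUFL1. Mitochondrial genes took 3.12% to 3.73% of the counts of sgUFM1 libraries, 3.42% to 3.89% for set 1, 3.68% to 4.0% for set 2 and 4.51% to 4.76% for the controls for sgUFL1, and its part in the results was not tested. The main results are also given with offsets for GC and length, and without set 1 replicate 1 or replicate 2 of those controls.

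Levels of the 45 genes spanned from no expression to some of the more abundant messages. Per kilobase, the highest mean levels over the 12 libraries were those of ISG15, the ubiquitin-like protein of this response, at 134 CPM per kb, and of IFITM3, a membrane protein that blocks virus entry, at 116 CPM per kb. ADAR, which edits adenosine in double-stranded RNA, followed at 28.9 CPM per kb, and UBE2L6, IFIT3 and IFITM2 lay between 26.5 and 27.6. XAF1, a gene linked to apoptosis, had 11 counts in all 12 libraries together and was tested in no comparison. RTP4 reached at most 1.31 CPM and passed the filter on low counts only in the fit over 12 libraries. Summed over the 45 genes, levels were 1830.0 to 1940.0 CPM in sgUFM1, 1540.0 to 1840.0 CPM for set 1, 1470.0 to 1490.0 CPM for set 2 and 1610.0 to 1920.0 CPM for the controls for sgUFL1. Set 2 was lowest and overlapped no other group in this sum, while the other 3 groups overlapped one another. In bulk RNA, fewer cells expressing a gene and less RNA per cell cannot be told apart.

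**Figure D1:**
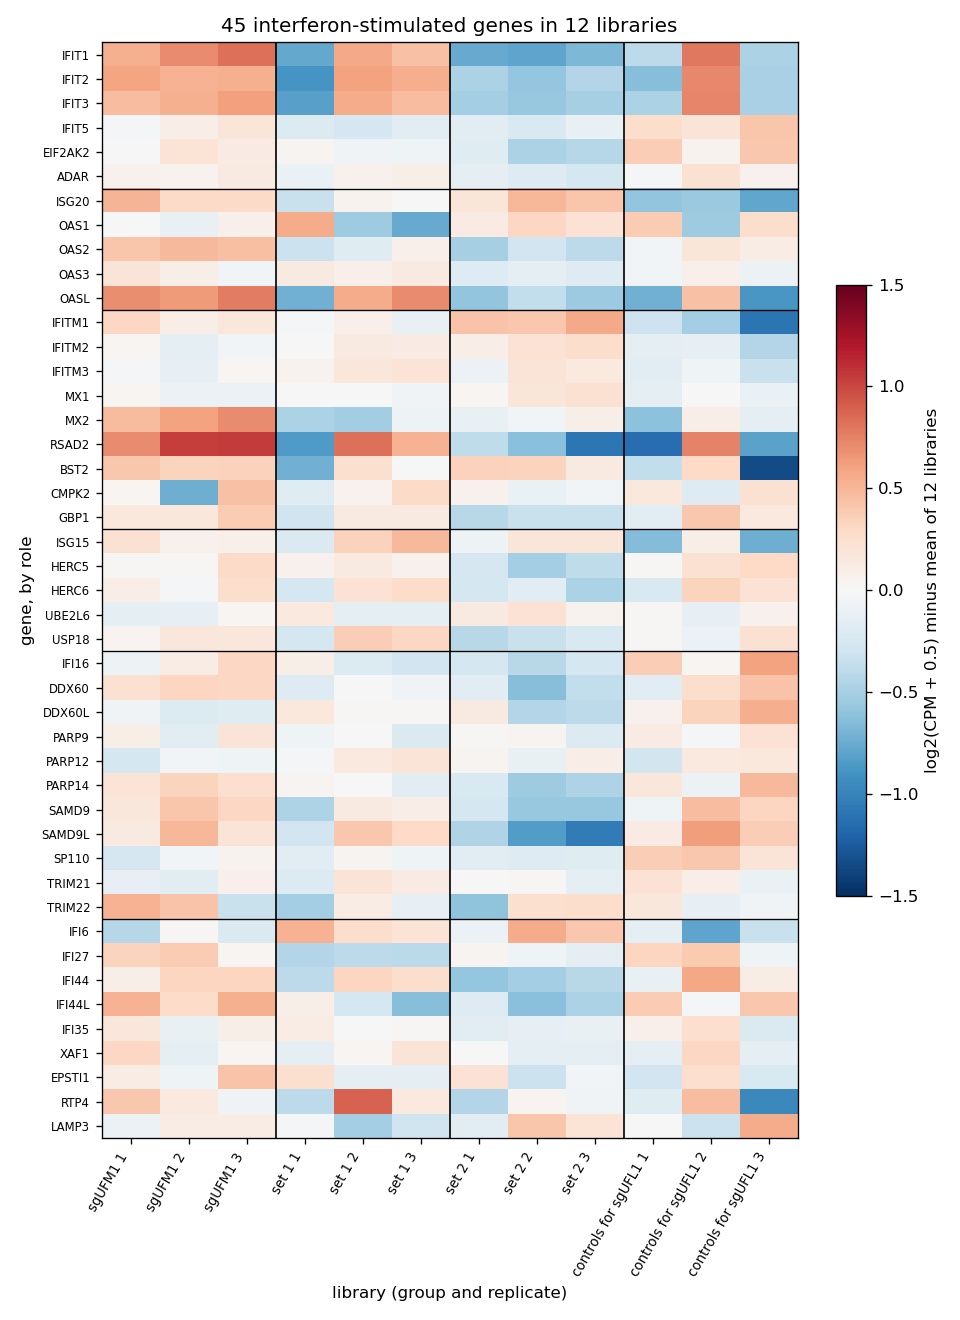
Level of each of the 45 genes (rows, by role, with lines between roles) in each of the 12 libraries (columns, with lines between groups), as log2(CPM + 0.5) minus the gene's mean over the 12 libraries; red is above and blue below that mean, and colours stop at 1.5 in either direction. IFIT1, IFIT2, IFIT3, OASL and RSAD2 are red in sgUFM1, in set 1 replicates 2 and 3 and in replicate 2 of the controls for sgUFL1, and blue in the other libraries.

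The number of members that passed the test depended on which libraries sgUFM1 was set against. Against set 2, its own controls by the count names, 22 of 43 tested members were higher and 3 lower in sgUFM1 at an adjusted p under 0.05, where 19.3% and 18.5% of all 15083 genes tested were higher and lower. The median log2 difference was 0.29 for the members and 0.01 for all genes. Against set 1, its own controls by the FPKM names, 3 of 43 were higher and 0 lower (4.57% and 5.15% of all genes). The members' median there was 0.15 and that of all genes -0.01, and at an unadjusted p under 0.05 edgeR gave 9 higher and 2 lower (12.4% and 13.6% of all genes), and DESeq2 gave 6 and 1 (5.52% and 6.31%). Against the controls for sgUFL1, the one comparison with the same names in both tables, 3 were higher and 1 lower (5.57% and 4.43% of all genes), with medians of 0.05 and 0. These counts are near the background in both of the last comparisons.

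For the UFL1 guide the counts again depended on the name. Set 1 against the controls for sgUFL1, the guide effect by the count names, gave 0 higher and 0 lower of 43 (1.08% and 0.02% of all genes) by edgeR, 6 and 5 at an unadjusted p under 0.05 (16.0% and 12.1%), and 2 and 2 by DESeq2 (8.69% and 3.5%). Set 2 against the same controls, the guide effect by the FPKM names, gave 4 higher and 16 lower of 43 (17.4% and 18.4% of all genes), with a median of -0.31 for members and -0.03 for all genes. Set 1 against set 2 gave 1 higher, HERC5, and 0 lower of 42 by edgeR (0.705% and 1.49% of all genes). At an unadjusted p under 0.05 these were 16 and 2 (9.71% and 10.3%), and by DESeq2 4 and 1 (1.9% and 3.15%). The comparisons share libraries: set 2 is in both comparisons with many calls, once set against sgUFM1 and once set against the controls for sgUFL1.

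**Figure D2:**
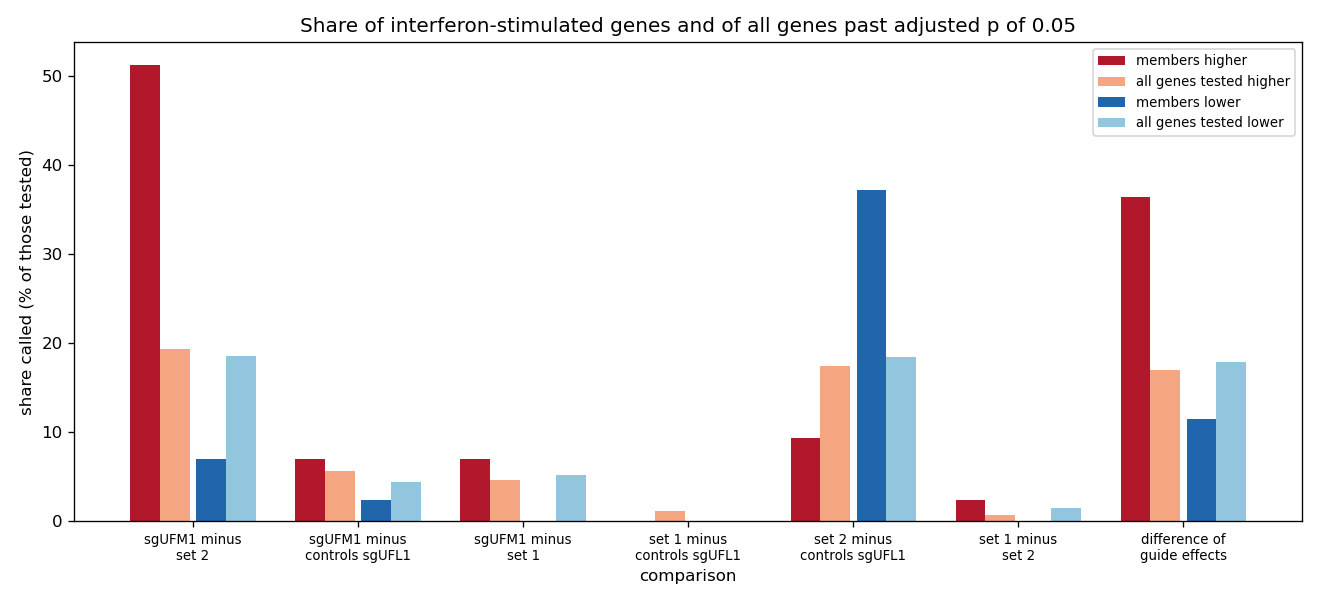
Share of the tested interferon-stimulated genes (dark bars) and of all tested genes (light bars) that were higher (red) or lower (blue) at an adjusted p under 0.05, in percent, for the 6 pairs of groups and the difference between the effects of both guides. Members exceed all genes in the higher direction for sgUFM1 minus set 2 (51.2% against 19.3%) and in the lower direction for set 2 minus the controls for sgUFL1 (37.2% against 18.4%).

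Among the proteins that sense or edit RNA or arrest translation, IFIT1, IFIT2 and IFIT3 had the largest differences between sgUFM1 and set 2. All 6 members of this class (IFIT1, IFIT2, IFIT3, IFIT5, EIF2AK2 and ADAR) were higher in sgUFM1 than in set 2, where 19.3% of all genes were higher. The median log2 difference of the class was 0.76. IFIT1, which binds viral RNA lacking the host cap methylation, was at 67.4, 76.4 and 83.1 CPM in sgUFM1, 27.1, 69.3 and 63.1 in set 1, 27.4, 26.6 and 28.9 in set 2, and 35.3, 80.9 and 33.4 in the controls for sgUFL1. The 3 sgUFM1 libraries lay above all 3 of set 2, by 1.46 ± 0.09 on the log2 scale (adjusted p = 1.91e-10). Set 1 and the controls for sgUFL1 were each split, with set 1 replicate 1 at the level of set 2 and replicate 2 of the controls at the level of sgUFM1. Accordingly IFIT1 differed by 0.51 ± 0.25 between sgUFM1 and set 1 (adjusted p = 0.222) and by 0.59 ± 0.26 between sgUFM1 and the controls for sgUFL1 (adjusted p = 0.154), neither past the threshold.

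IFIT2 and IFIT3, partners of IFIT1 in the same RNA-binding complex, had the same split. IFIT2 was at 68.1, 64.9 and 65.6 CPM in sgUFM1, 24.2, 68.7 and 66.1 in set 1, 32.3, 30.1 and 33.1 in set 2, and 28.7, 74.4 and 32.2 in the controls for sgUFL1. IFIT3 was at 92.7, 97.1 and 103 CPM in sgUFM1, 37.8, 98.9 and 92.6 in set 1, 46.8, 45.1 and 47.2 in set 2, and 48.0, 112 and 47.9 in the controls for sgUFL1. Against set 2 they were higher in sgUFM1 by 1.06 ± 0.08 and 1.08 ± 0.08 (adjusted p = 4.85e-09 and 1.64e-09). All 3 genes lie on chromosome 10 of GRCh38 within the span of LIPA on the other strand (IFIT1 at chr10:89392546-89406486, GENCODE annotation), and since strand is not stated for the counts, reads of LIPA cannot be told apart there.

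IFIT5, which lies beside them at chr10:89414586-89421001, had another order. It was at 55.8, 61.3 and 65.0 CPM in sgUFM1, 49.5, 48.0 and 50.9 in set 1, 51.0, 48.7 and 52.6 in set 2, and 68.6, 65.1 and 76.3 in the controls for sgUFL1. The controls for sgUFL1 were highest and sgUFM1 next, above set 1 and set 2. The difference between sgUFM1 and set 1, 0.30 ± 0.08, passed narrowly (adjusted p = 0.0498) and was lost with offsets for GC and length (adjusted p = 0.107) and in the fit over 12 libraries (adjusted p = 0.0664). EIF2AK2, the double-stranded RNA kinase PKR, was at 115, 132 and 125 CPM in sgUFM1, 118, 111 and 110.0 in set 1, 101, 82.6 and 85.6 in set 2, and 149, 119 and 152 in the controls for sgUFL1. It was higher in sgUFM1 than in set 2 by 0.47 ± 0.08 (adjusted p = 0.000179) and lower in set 2 than in the controls for sgUFL1 by -0.66 ± 0.13 (adjusted p = 0.00299). With offsets the EIF2AK2 values became 0.17 (adjusted p = 0.0114) and -0.17 (adjusted p = 0.22). The difference of IFIT5 between sgUFM1 and set 2 was 0.27 ± 0.08 without offsets (adjusted p = 0.0138) and 0.03 with them (adjusted p = 0.756). ADAR was higher in sgUFM1 than in set 2 by 0.29 ± 0.06 (adjusted p = 0.00117), and 0.23 with offsets.

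**Figure D3:**
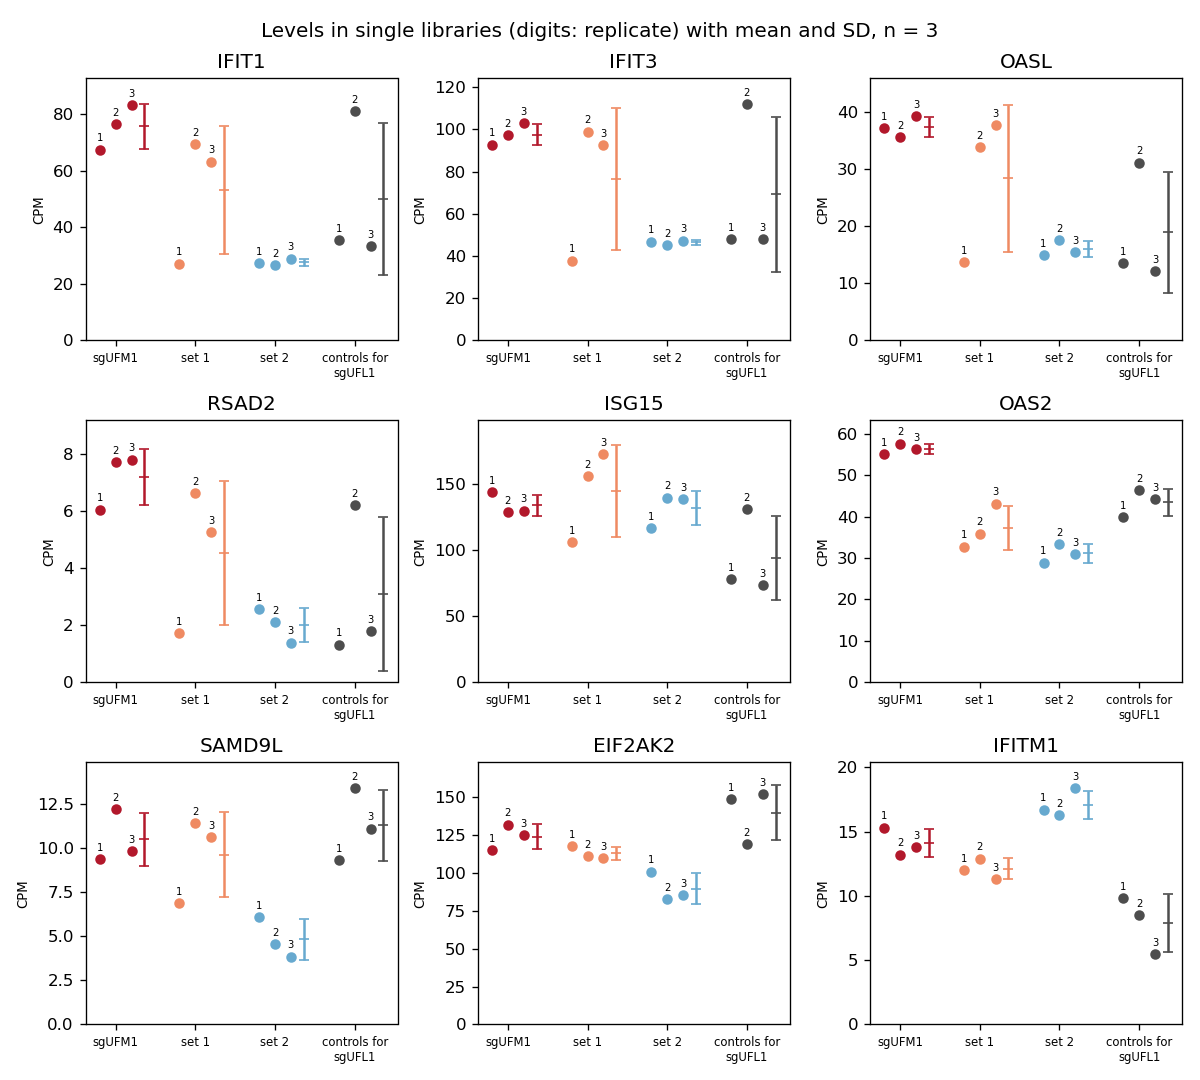
CPM of 9 members in single libraries of sgUFM1, set 1, set 2 and the controls for sgUFL1, with the replicate number above each point and the mean and SD of 3 libraries beside them. IFIT1, IFIT3, OASL and RSAD2 are high in 1 of 3 controls for sgUFL1 (replicate 2) and low in 1 of 3 libraries of set 1 (replicate 1), while OAS2 separates sgUFM1 from every other library.

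Of the 5 genes for RNA degradation, 3 were higher and 0 lower by edgeR in sgUFM1 than in set 2 (19.3% and 18.5% of all genes). The OAS enzymes make short oligoadenylates that switch on RNase L. OAS2 was at 55.0, 57.6 and 56.2 CPM in sgUFM1, 32.7, 35.9 and 43.1 in set 1, 28.9, 33.4 and 31.0 in set 2, and 39.9, 46.3 and 44.2 in the controls for sgUFL1. All 3 sgUFM1 libraries were above all 9 others. The difference was 0.86 ± 0.08 against set 2 (adjusted p = 1.32e-07), 0.60 ± 0.10 against set 1 (adjusted p = 0.00747) and 0.37 ± 0.11 against the controls for sgUFL1, where the adjusted p of 0.05 did not pass. With offsets for GC and length these were 0.82, 0.57 and 0.43, all past the threshold (adjusted p = 9.32e-09, 0.00999 and 0.0135). The call against set 1 was lost without sgUFM1 replicate 2 or 3 (adjusted p = 0.0652 and 0.0521). OAS3 was at 115, 107 and 97.6 CPM in sgUFM1 and 88.0, 91.0 and 88.0 in set 2, higher by 0.27 ± 0.07 (adjusted p = 0.00714), and in set 1 it was at 106 to 111.

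OASL, an OAS relative without that enzyme activity, followed the IFIT1 libraries. It was at 37.2, 35.7 and 39.3 CPM in sgUFM1, 13.7, 33.9 and 37.7 in set 1, 15, 17.6 and 15.5 in set 2, and 13.6, 31.2 and 12.2 in the controls for sgUFL1. It was higher in sgUFM1 by 1.23 ± 0.10 against set 2 (adjusted p = 7.77e-09) and by 0.97 ± 0.27 against the controls for sgUFL1 (adjusted p = 0.0395). The second call was lost by DESeq2 (adjusted p = 0.11), in the fit over 12 libraries (adjusted p = 0.0514) and without any 1 library other than replicate 2 of those controls (adjusted p = 0.0935 to 0.134). OAS1 did not follow them. It was at 7.64, 7.02 and 8.07 CPM in sgUFM1, 11.4, 5.12 and 4.29 in set 1, 8.37, 9.53 and 8.90 in set 2, and 10.1, 5.13 and 9.28 in the controls for sgUFL1. Its lowest values were in set 1 replicates 2 and 3 and in replicate 2 of those controls, libraries in which IFIT1 was high, and OAS1 passed no edgeR test with all libraries. OAS1, OAS2 and OAS3 lie side by side on chromosome 12 and share an antisense gene, AC004551.1, whose reads cannot be told apart from theirs.

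ISG20, an exonuclease that degrades single-stranded RNA, gave the smallest p among members in sgUFM1 against the controls for sgUFL1. It was at 16.9, 14.4 and 14.4 CPM in sgUFM1, 9.15, 12.1 and 11.7 in set 1, 13.3, 16.7 and 15.8 in set 2, and 7.59, 7.81 and 6.62 in the controls for sgUFL1. Both sgUFM1 and set 2 lay above all of those controls, by 1.04 ± 0.16 and 1.04 ± 0.17 (adjusted p = 0.00338 and 0.00138). These calls were the same under every alternative tried. Between sgUFM1 and set 2 the difference was 0.00 ± 0.12.

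Among the 9 genes acting on virus entry, replication and release, 3 were higher and 1 lower in sgUFM1 than in set 2 (19.3% and 18.5% of all genes). RSAD2, the enzyme viperin that makes a chain-terminating nucleotide, was at 6.05, 7.72 and 7.81 CPM in sgUFM1, 1.72, 6.63 and 5.26 in set 1, 2.57, 2.10 and 1.39 in set 2, and 1.32, 6.22 and 1.79 in the controls for sgUFL1. Its libraries split as those of IFIT1 did. The difference against set 2 was 1.82 ± 0.22 (adjusted p = 3.36e-06), and against the controls for sgUFL1 1.20 ± 0.43 (adjusted p = 0.0873). RSAD2 overlaps CMPK2 on the other strand. CMPK2, which supplies the nucleotide RSAD2 modifies, was at 0.515 to 1.78 CPM in sgUFM1 and 1.08 to 1.26 in set 2, a difference of 0.03 ± 0.40.

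MX2, a GTPase that restricts retroviruses at the nuclear pore, was at 4.04, 4.44 and 4.83 CPM in sgUFM1, 1.84, 1.77 and 2.60 in set 1, 2.52, 2.67 and 2.97 in set 2, and 1.63, 2.99 and 2.47 in the controls for sgUFL1. The sgUFM1 libraries were above the 9 others. It was higher by 1.10 ± 0.25 against set 1 and 0.72 ± 0.21 against set 2 (adjusted p = 0.0213 and 0.0111), and the value against the controls for sgUFL1 was 0.90 ± 0.28 (adjusted p = 0.0571). The call against set 1 was lost without any 1 sgUFM1 library (adjusted p = 0.0531 to 0.106) or without set 1 replicate 2 (adjusted p = 0.0652). Its relative MX1, which blocks influenza virus, was at 16.4, 15.1 and 15.1 CPM in sgUFM1, 16.2, 16.1 and 15.5 in set 1, 16.5, 18.4 and 19.0 in set 2, and 14.6, 16.1 and 15 in the controls for sgUFL1, and passed no edgeR test with all libraries. GBP1, a guanylate-binding protein, was at 47.9, 48.6 and 56.3 CPM in sgUFM1 and 32.0, 33.9 and 34.1 in set 2, higher by 0.62 ± 0.09 (adjusted p = 1.37e-05).

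The IFITM genes, which stop viruses from fusing with the cell membrane, had another order of groups. IFITM1 was at 15.3, 13.2 and 13.8 CPM in sgUFM1, 12, 12.9 and 11.3 in set 1, 16.7, 16.3 and 18.4 in set 2, and 9.81, 8.48 and 5.44 in the controls for sgUFL1. The controls for sgUFL1 were lowest and set 2 highest. IFITM1 was higher by 0.83 ± 0.21 in sgUFM1 and by 1.09 ± 0.20 in set 2 than in those controls (adjusted p = 0.0272 and 0.0022), and the first call was lost without replicate 3 of the controls (adjusted p = 0.0507) or without any 1 sgUFM1 library (adjusted p = 0.0784 to 0.129). IFITM2 was at 41.5, 37.0 and 39.3 CPM in sgUFM1 and 43.5, 47.1 and 48.9 in set 2, lower by -0.24 ± 0.08 (adjusted p = 0.0292), and -0.04 with offsets (adjusted p = 0.659). IFITM3 was at 152, 143 and 158 CPM in sgUFM1, 161, 174 and 179 in set 1, 146, 178 and 172 in set 2, and 139, 148 and 123 in the controls for sgUFL1, with no call in the edgeR fits to pairs of groups with all libraries. The edgeR fit over 12 libraries called IFITM3 higher in set 1 and set 2 than in the controls for sgUFL1. These 3 genes are close copies of one another, and IFITM1 and IFITM2 overlap on the same strand, so counting may split reads between them and their values are uncertain. BST2, which tethers budding virus, was at 3.67, 3.48 and 3.49 CPM in sgUFM1, 1.41, 3.22 and 2.66 in set 1, 3.50, 3.46 and 2.97 in set 2, and 1.93, 3.36 and 0.742 in the controls for sgUFL1. It was not called in the main edgeR fits to pairs of groups. With the replicate block, edgeR called it higher in set 2 than in those controls (0.83, adjusted p = 0.0462). Without replicate 2 of those controls it was higher in sgUFM1 (1.39) and in set 2 (1.28) than in them (adjusted p = 0.013 and 0.0101).

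ISG15 and the enzymes that attach and remove it did not move as one. ISG15 was at 144, 129 and 130.0 CPM in sgUFM1, 106, 156 and 173 in set 1, 117, 140.0 and 139 in set 2, and 78.2, 131 and 73.5 in the controls for sgUFL1. It was low in replicates 1 and 3 of those controls and in set 1 replicate 1. No pair of groups differed past the threshold in the main edgeR fits to pairs of groups. DESeq2, and edgeR with no filter, called ISG15 higher in sgUFM1, set 1 and set 2 than in the controls for sgUFL1. The edgeR fit over 12 libraries called it higher in set 1 than in those controls. The value of sgUFM1 against set 2 was 0.04 ± 0.08 (adjusted p = 0.746) and became 0.42 with offsets for GC and length (adjusted p = 6.84e-07). The ISG15 transcript has a GC content of 63.4%. HERC5, the main ligase for ISG15, was at 43.1, 43.1 and 52.2 CPM in sgUFM1, 44.7, 46.7 and 44.4 in set 1, 35.8, 29.9 and 32.7 in set 2, and 43.2, 49.9 and 52.7 in the controls for sgUFL1. All libraries of set 2 were below the 9 others. HERC5 was higher by 0.50 ± 0.10 in sgUFM1 and by 0.46 ± 0.10 in set 1 than in set 2 (adjusted p = 0.00042 and 0.0419), and lower by -0.59 ± 0.13 in set 2 than in the controls for sgUFL1 (adjusted p = 0.00476). The call of HERC5 between set 1 and set 2 was lost without replicate 2 or 3 of either set (adjusted p = 0.118 to 0.223).

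Its relative HERC6 was at 14.1, 12.9 and 15.9 CPM in sgUFM1 and 10.9, 11.7 and 9.28 in set 2, higher by 0.43 ± 0.13 (adjusted p = 0.0142). USP18, the protease that removes ISG15 and damps receptor signalling, was at 6.48, 7.15 and 7.11 CPM in sgUFM1 and 4.59, 4.88 and 5.30 in set 2, higher by 0.50 ± 0.17 (adjusted p = 0.0225). UBE2L6, the conjugating enzyme, was at 54.6, 55.6 and 61.6 CPM in sgUFM1 and 66.6, 70.5 and 62.8 in set 2, lower by -0.21 ± 0.08 (adjusted p = 0.0403). These 3 calls were the weaker ones of the class. Those of HERC6 and USP18 were lost in the fit over 12 libraries (adjusted p = 0.105 and 0.0862) and that of UBE2L6 with offsets (-0.01, adjusted p = 0.962).

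The largest class was PARP and TRIM proteins, helicases and nuclear factors. It had 5 of 11 members higher in sgUFM1 than in set 2 and 0 lower by edgeR (19.3% and 18.5% of all genes). In set 2 against the controls for sgUFL1, 0 of the 11 were higher and 7 lower by edgeR (17.4% and 18.4% of all genes). Of those 7, SAMD9L passed with offsets for GC and length, and IFI16, DDX60, DDX60L, PARP14, SAMD9 and SP110 did not (adjusted p = 0.106 to 0.76). SAMD9L, which cleaves a transfer RNA and arrests translation, was at 9.36, 12.2 and 9.84 CPM in sgUFM1, 6.88, 11.4 and 10.6 in set 1, 6.07, 4.54 and 3.85 in set 2, and 9.33, 13.4 and 11.1 in the controls for sgUFL1. All of set 2 lay below the 9 other libraries. It was higher by 1.11 ± 0.18 in sgUFM1 than in set 2 (adjusted p = 6.42e-05) and lower by -1.24 ± 0.22 in set 2 than in the controls for sgUFL1 (adjusted p = 0.00192). SAMD9, its neighbour on chromosome 7, was at 32.6, 38.8 and 36.1 CPM in sgUFM1, 20.8, 31.8 and 30.9 in set 1, 24.1, 19.4 and 19.4 in set 2, and 27.6, 39.9 and 36.4 in the controls for sgUFL1. For SAMD9 the difference between sgUFM1 and set 2 was 0.78 ± 0.11 (adjusted p = 1.04e-05), and with offsets 0.50.

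PARP14, a mono-ADP-ribosyltransferase, was at 50.3, 55.2 and 52.1 CPM in sgUFM1, 45, 43.5 and 38.9 in set 1, 37.2, 30.1 and 31.5 in set 2, and 49.0, 41.2 and 61.2 in the controls for sgUFL1. It was higher in sgUFM1 than in set 2 by 0.68 ± 0.09 (adjusted p = 1.01e-05). IFI16, a nuclear DNA sensor, was at 86.4, 98.5 and 113 CPM in sgUFM1, 97.3, 79.2 and 74.7 in set 1, 75.8, 68.2 and 75.7 in set 2, and 118, 93.0 and 139 in the controls for sgUFL1. Its difference between sgUFM1 and set 2 was 0.44 ± 0.09 (adjusted p = 0.000539) and 0.21 with offsets. The helicase DDX60 was at 13.9, 14.9 and 14.8 CPM in sgUFM1 and 10.5, 7.43 and 9.02 in set 2, higher by 0.70 ± 0.14 (adjusted p = 0.000544). DDX60L, its paralog, was the one member lower in sgUFM1 than in the controls for sgUFL1, at 21.3, 19.1 and 19.4 CPM in sgUFM1 and 23.2, 28.1 and 32.5 in those controls. That difference, -0.49 ± 0.14 (adjusted p = 0.0481), was lost with offsets (-0.30, adjusted p = 0.164), without any 1 sgUFM1 library and without replicate 3 of the controls (adjusted p = 0.129 to 0.184). SP110, a nuclear body protein, was at 15.7, 15.4 and 15.5 CPM in set 2 and 22.9, 23.5 and 20.2 in the controls for sgUFL1, lower by -0.54 ± 0.14 (adjusted p = 0.00937). That call was lost with offsets (-0.29, adjusted p = 0.158) and without set 2 replicate 2 or 3 (adjusted p = 0.0566 and 0.0537). PARP9, PARP12, TRIM21 and TRIM22 passed no edgeR test between pairs of groups with all libraries, and TRIM22 was below 2 CPM throughout.

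Of the 9 other induced genes, 7 were tested in sgUFM1 against set 2, and 2 were higher and 1 lower (19.3% and 18.5% of all genes). IFI44 was at 44.8, 52.8 and 53.0 CPM in sgUFM1, 31.9, 53.0 and 50.9 in set 1, 28.1, 29.5 and 31.6 in set 2, and 38.9, 63.1 and 45.6 in the controls for sgUFL1. Again set 2 was low, and set 1 replicate 1 lay just above it. IFI44 was higher in sgUFM1 than in set 2 by 0.76 ± 0.09 (adjusted p = 2.12e-06). IFI44L, beside it on chromosome 1, was at 7.15, 5.92 and 7.18 CPM in sgUFM1, 5.16, 3.94 and 2.92 in set 1, 4.16, 2.95 and 3.34 in set 2, and 6.44, 4.70 and 6.56 in the controls for sgUFL1. The difference of IFI44L between sgUFM1 and set 2 was 0.96 ± 0.19 (adjusted p = 0.000542). IFI6, a small protein of the ER and mitochondria, had the reverse order. It was at 6.73, 9.33 and 7.88 CPM in sgUFM1, 13.4, 11.2 and 10.7 in set 1, 8.64, 13.8 and 12.4 in set 2, and 8.37, 5.13 and 7.18 in the controls for sgUFL1. It was lower by -0.53 ± 0.17 in sgUFM1 than in set 2 (adjusted p = 0.017) and higher by 0.73 ± 0.22 in set 2 than in the controls for sgUFL1 (adjusted p = 0.0227), and both calls were lost with offsets (-0.30 and 0.27, adjusted p = 0.145 and 0.487). IFI35, EPSTI1 and LAMP3 passed no edgeR test with all libraries and without offsets, and IFI27 was between 0.368 and 1.04 CPM in every library.

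**Figure D4:**
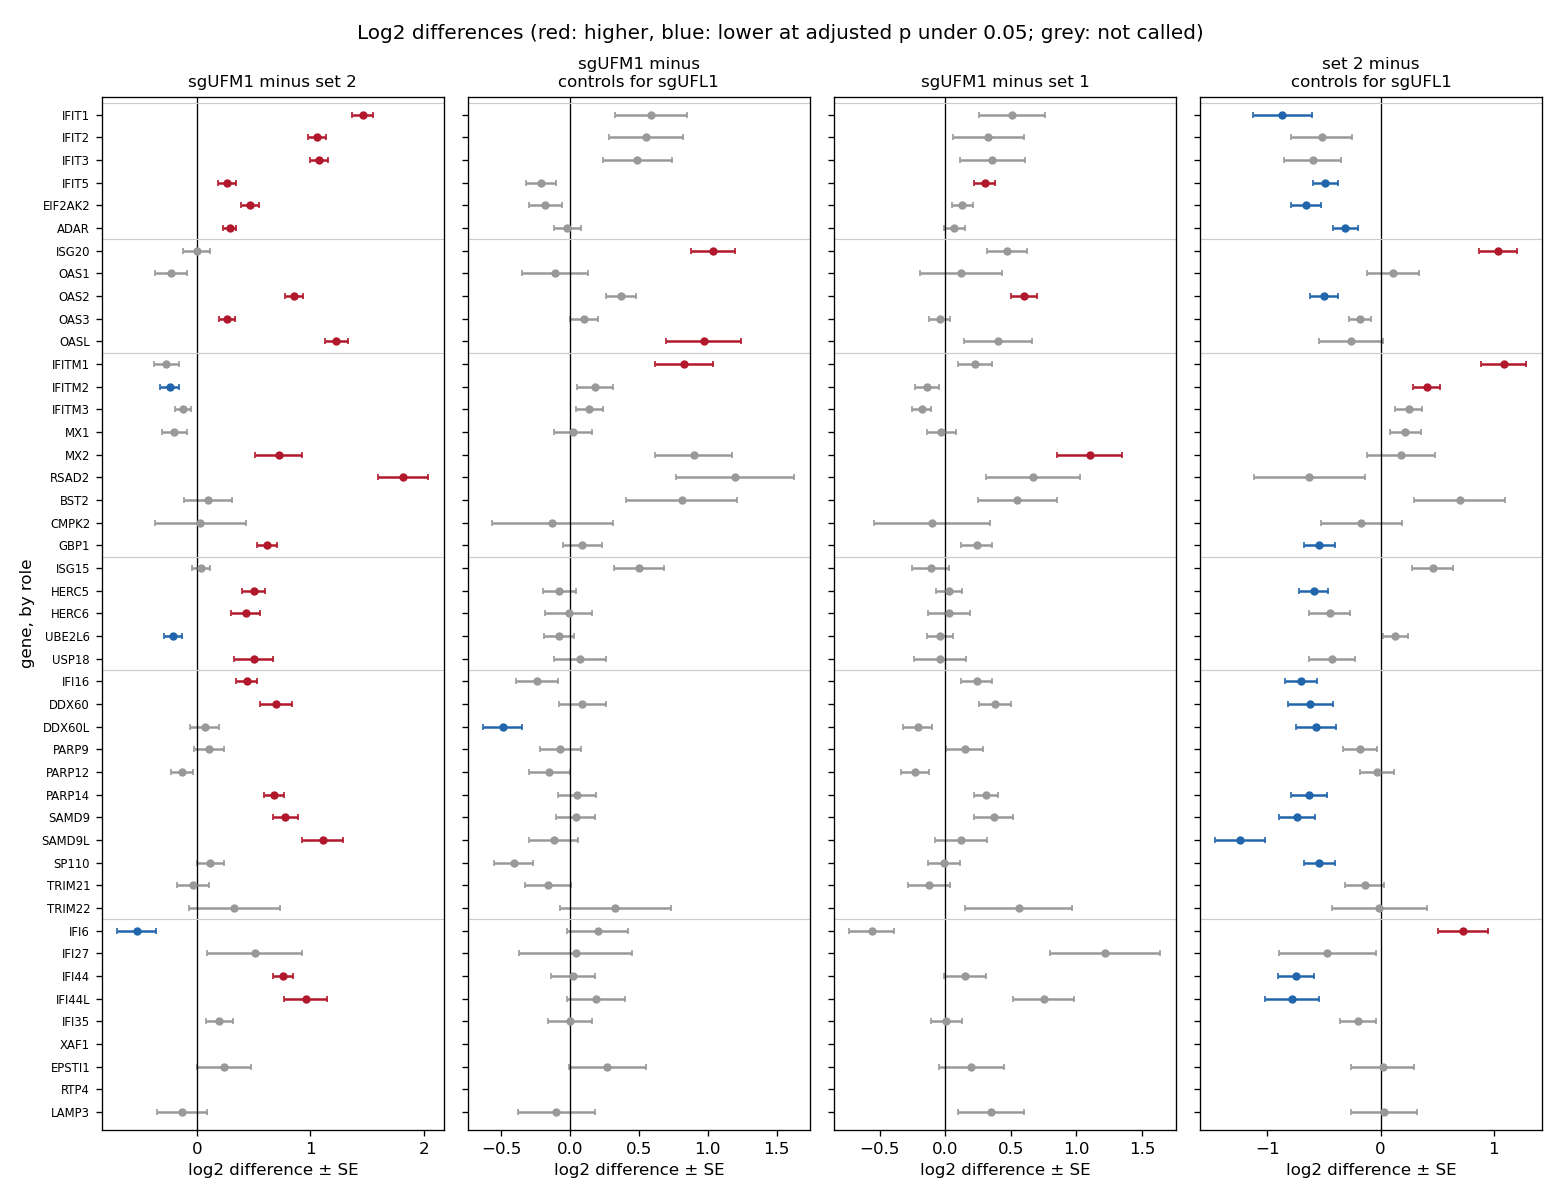
Log2 difference ± SE of each tested member in 4 comparisons, from edgeR fits to the 3 libraries of each group, with red for higher, blue for lower and grey for values that did not pass an adjusted p of 0.05; members run down by role. IFIT1, IFIT2, IFIT3, OASL and RSAD2 have short bars against set 2 and long ones against set 1 and the controls for sgUFL1.

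Within set 1 and within the controls for sgUFL1, single libraries stood apart. Against the mean of the other libraries of its group, replicate 2 of the controls for sgUFL1 was at least 1.5-fold higher in 7 of 42 members with a mean of at least 1 CPM (RSAD2, IFIT2, OASL, IFIT1, IFIT3, BST2 and ISG15), where 5.05% of 13882 genes were that much higher. It was that much lower in 2 of 42 (6.76% of genes). Set 1 replicate 1 was at least 1.5-fold lower in 10 of 42 (the same 7 and IFI44, SAMD9L and USP18), where 4.64% of genes were that much lower. It was that much higher in 1 of 42, OAS1 (5.98% of genes). Replicate 3 of the controls for sgUFL1 was at least 1.5-fold lower in 7 of 42 and higher in 1 (6.64% and 2.63% of genes). For replicate 1 of those controls these were 6 and 0 by the same measure (2.13% and 3.42% of genes). Without replicate 2 of the controls, sgUFM1 against the controls for sgUFL1 gave 11 members higher and 3 lower (14.2% and 12.9% of all genes), with IFIT1 at 1.13, IFIT2 at 1.11, IFIT3 at 1.01, OASL at 1.52, RSAD2 at 2.19 and ISG15 at 0.81. Without set 1 replicate 1, set 1 against set 2 gave 17 higher and 3 lower (7.84% and 8.87% of all genes), with IFIT1 at 1.24 and RSAD2 at 1.52, and sgUFM1 against set 1 gave 7 higher and 4 lower (12% and 14.6% of all genes). In that last comparison ISG15 was lower at -0.29 and OAS2 higher at 0.52, and none of IFIT1, IFIT2, IFIT3, OASL and RSAD2 was called. Without both libraries, set 1 against the controls for sgUFL1 gave 9 higher and 5 lower (18.6% and 13.4% of all genes), IFIT1 at 0.95 and OASL at 1.48 among the higher. These libraries were chosen for removal after their values were seen, so the counts are a description.

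The difference between the effects of both guides was tested directly, as sgUFM1 minus its controls, less sgUFL1 minus its controls. This quantity has the same value under both namings. Over 12 libraries, 16 of 44 members had a positive difference and 5 a negative one past the threshold (17.0% and 17.9% of all genes), with a median of 0.42 for members and 0.02 for all genes. OAS2 had the smallest p, with a difference of 1.08 ± 0.15 (adjusted p = 0.000229), and IFIT5 followed with 0.76 ± 0.13 (adjusted p = 0.000678). PARP14 gave 0.92 ± 0.19, EIF2AK2 0.78 ± 0.15, SAMD9 1.09 ± 0.23, IFI44L 1.51 ± 0.33 and IFI16 0.92 ± 0.20. The negative ones were IFI6, IFITM1, IFITM2, IFITM3 and ISG20, from -1.31 to -0.45. IFIT1 was positive at 1.37 ± 0.44 (adjusted p = 0.0253), with the large error of its split groups. With offsets for GC and length, 4 members were positive and 0 negative by edgeR (3.94% and 5.44% of all genes). The 4 were OAS2 (0.96), PARP14 (0.47), OAS3 (0.37) and IFI35 (0.83), of which OAS2 and PARP14 were also called without offsets.

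Several of these differences moved with the GC content of the transcripts. Members had a median GC content of 45%, against 47.9% for 13882 genes with a mean of at least 1 CPM. Across members, the log2 difference and GC content had a Spearman rho of 0.79 in set 2 against the controls for sgUFL1, -0.60 in sgUFM1 against set 2 and 0.25 in sgUFM1 against the controls for sgUFL1 (42 to 44 members in each comparison, which share libraries and are not independent). With offsets for GC and length, set 2 against the controls for sgUFL1 gave 5 lower and 2 higher in place of 16 and 4, and the shares of all genes were 4.07% and 4.9% in place of 18.4% and 17.4%. OAS2, HERC5 and SAMD9L were lower and IFITM1 and ISG20 higher both ways. In sgUFM1 against set 2 the offsets gave 23 higher, of which 21 were among the first 22, and 0 lower by edgeR (16.2% and 17.0% of all genes). There IFIT1 became 1.31, OASL 1.29, RSAD2 1.67 and SAMD9L 0.86. In sgUFM1 against the controls for sgUFL1 they gave 4 higher, with OAS2 added, and 0 lower by edgeR (4.33% and 4.02% of all genes). The part of GC content in these results was not tested further.

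**Figure D5:**
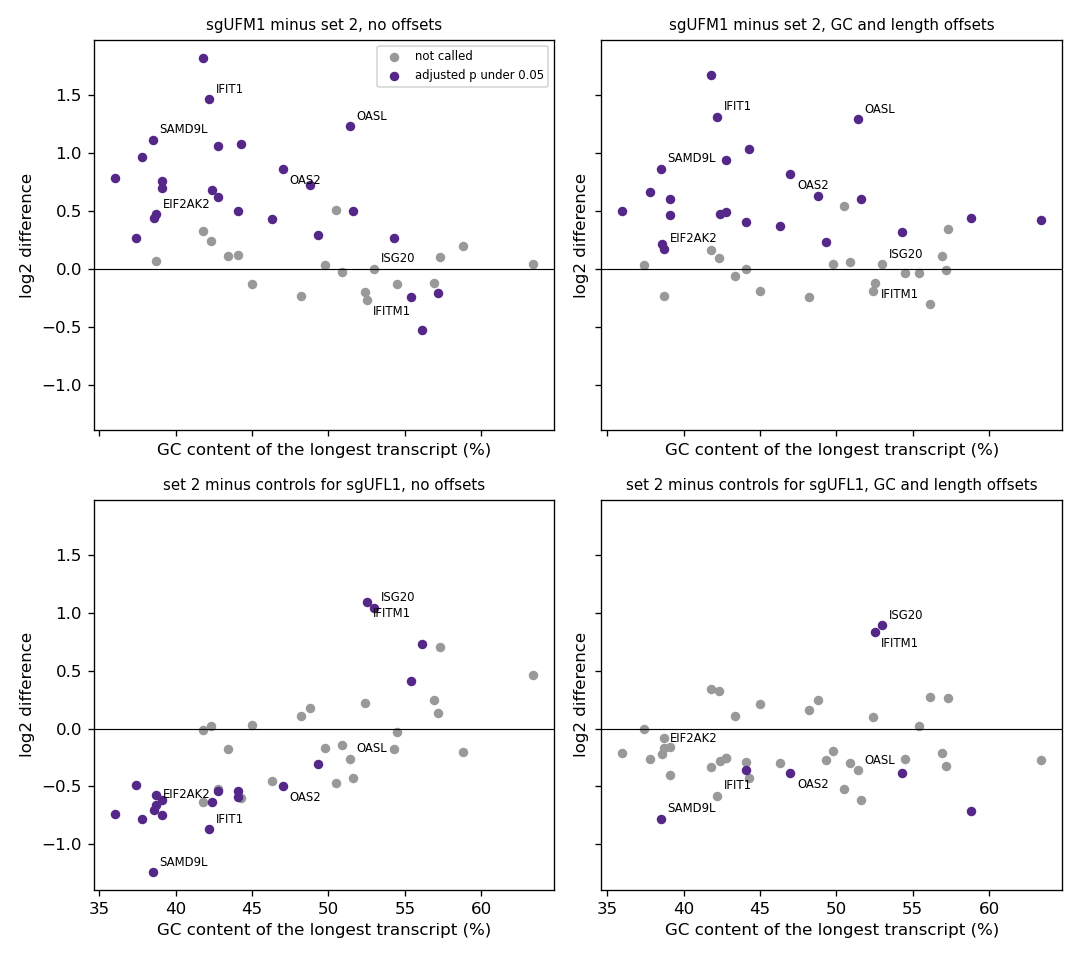
Log2 difference of each tested member against the GC content of its longest transcript, for sgUFM1 minus set 2 (top) and set 2 minus the controls for sgUFL1 (bottom), without offsets (left) and with offsets for GC and length (right); purple points passed an adjusted p of 0.05. The bottom left panel rises with GC content (rho of 0.79), and IFIT1, OASL and OAS2 stay high in both upper panels.

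The genes upstream of the response were measured in the same fits. The alternative settings were read out only for the members, UFL1 and UFM1. The calls of the upstream and interferon gamma genes below were therefore not checked with offsets or with libraries left out. The 8 interferon genes looked for (IFNB1, IFNA1, IFNA2, IFNE, IFNK, IFNL1, IFNL2 and IFNL3) had no count in any library, which allows up to 0.166 to 0.196 CPM at 3 counts a library. Of 10 tested sensors and adaptors of foreign nucleic acid, 7 were higher and 0 lower by edgeR in sgUFM1 than in set 2 (19.3% and 18.5% of all genes). Against set 1 the counts were 2 and 0 (4.57% and 5.15% of all genes). Against the controls for sgUFL1 they were 1 and 0 (5.57% and 4.43% of all genes). TLR3, the endosomal receptor for double-stranded RNA, was at 11.1, 10.8 and 12.6 CPM in sgUFM1, 5.40, 7.68 and 6.11 in set 1, 3.91 to 5.96 in set 2, and 8.37, 9.70 and 9.22 in the controls for sgUFL1. It was higher in sgUFM1 by 1.28 ± 0.17 against set 2 and 0.85 ± 0.17 against set 1 (adjusted p = 7.4e-06 and 0.0125), and the value against the controls for sgUFL1 was 0.33 ± 0.16 (adjusted p = 0.196). TMEM173, the DNA-sensing adaptor STING, was at 55.5, 56.5 and 51.6 CPM in sgUFM1, 27.9, 41.7 and 36.4 in set 1, 39.9, 48.0 and 41.1 in set 2, and 27.8, 36.5 and 21.0 in the controls for sgUFL1. It lay above all 9 other libraries in sgUFM1 and passed the test against set 1, set 2 and the controls for sgUFL1, by 0.63 ± 0.13, 0.35 ± 0.09 and 0.93 ± 0.17 (adjusted p = 0.0131, 0.00285 and 0.00655).

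Receptor and transcription factor genes were tested in the same way. Between sgUFM1 and set 2, 19.3% of all genes were higher and 18.5% lower. Against set 1 (4.57% and 5.15% of all genes), 0 of 5 receptor and kinase genes were called, and 1 of 7 transcription factors was lower. Against the controls for sgUFL1 (5.57% and 4.43% of all genes), 0 of 5 receptor and kinase genes were called by edgeR, and 1 of 7 transcription factors was higher. IFNAR1 was higher in sgUFM1 than in set 2 by 0.54 ± 0.08 (adjusted p = 4.8e-05) and was the one called there of 5 tested receptor and kinase genes. Among the 7 transcription factors, 2 were higher and 1 lower in sgUFM1 than in set 2 by edgeR. IRF1 was among the higher, by 0.27 ± 0.08 (adjusted p = 0.0116), and IRF3 was lower at -0.49 ± 0.08 (adjusted p = 4.81e-05). STAT2, IRF2, IRF7 and IRF9 did not pass, and IRF9 was at most 1.47 CPM. Among feedback inhibitors, PIAS1 was the one called of 4 tested, at 0.31 (adjusted p = 0.0262).

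Of 13 tested genes better known as targets of interferon gamma, 8 were higher and 2 lower in sgUFM1 than in set 2 (19.3% and 18.5% of all genes). Against set 1, 3 were higher and 0 lower by edgeR (4.57% and 5.15% of all genes). Against the controls for sgUFL1, 5 were higher and 0 lower by edgeR (5.57% and 4.43% of all genes). GBP5, a guanylate-binding protein, was at 8.68, 9.40 and 8.57 CPM in sgUFM1, 1.11, 6.04 and 4.74 in set 1, 2.35, 2.61 and 2.21 in set 2, and 2.71, 6.16 and 2.10 in the controls for sgUFL1. It was higher in sgUFM1 than in set 2 by 1.90 ± 0.18 and than in the controls for sgUFL1 by 1.27 ± 0.32 (adjusted p = 1.32e-07 and 0.0271). CXCL11, a chemokine for T cells, was at 7.34, 8.82 and 8.07 CPM in sgUFM1, 0.921, 10.1 and 11.4 in set 1, 1.26, 1.87 and 0.946 in set 2, and 2.11, 14.5 and 2.29 in the controls for sgUFL1. Its libraries split as those of IFIT1 did, with the highest value in replicate 2 of the controls.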

How the data were processed

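Total RNA was isolated with TRIzol, per the labels' protocols; strand is not given in the sources used here. The authors deposited read counts per gene and FPKM values for 12 libraries. The tools listed are STAR 2.7.7a, featureCounts 2.0.0 and fastp 0.20.1, on the GRCh38 build, per the submitters' processing notes. The deposited gene length column served to link FPKM columns to count columns. Counts were tested in edgeR 4.0.16 (R 4.3.3): quasi-likelihood test, filterByExpr, TMM, Benjamini-Hochberg adjustment over all genes at 0.05, with the 6 libraries of each comparison. These are the main fits to pairs of groups. Alternatives were RLE scaling, other filters, DESeq2 1.42.0, a fit over 12 libraries, a replicate block, offsets from a lowess trend (span 0.3) on GC and length, limma 3.58.1 on log2(FPKM + 0.5) or log2(FPKM + 0.1), and each library left out. The procedure was tested on simulated data. Between libraries of 1 group, chi-square per gene was 2.41 to 34.9, above sampling noise, and none was merged. Members, lists and tests were chosen with earlier results of these data known. Values in every library are given for up to 8 members with the smallest p in the main comparisons, up to 4 in the others and in the minority direction, and the IFIT, OAS, IFITM and ISG15 families. GBP1, SAMD9, DDX60, TMEM173, TLR3 and the other upstream genes were named beyond or from the lists after values were seen. Without stated strand, 20 of the 45 members overlap a gene on the other strand. The floor of 3 counts covers counting error only. Some genes of the pathway and marker lists are not reported here.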

Additional observations from a re-analysis of the deposited data

Results flagged for a closer look

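For 21 members the effects of both guides, each against its own controls, differed past an adjusted p of 0.05 (edgeR interaction over 12 libraries), sgUFM1 minus sgUFL1 in log2 units. Positive values were IFI27 1.67, IFI44L 1.51, IFIT1 1.37, SAMD9L 1.34, SAMD9 1.09, OAS2 1.08, DDX60 0.98, IFI16 0.92, PARP14 0.92, IFI44 0.88, EIF2AK2 0.78, IFIT5 0.76, GBP1 0.76, HERC5 0.60, SP110 0.51 and ADAR 0.36. Negative values were IFI6 -1.31, IFITM1 -0.88, ISG20 -0.58, IFITM2 -0.56 and IFITM3 -0.45. The call of IFI27, a low-count member, was lost by edgeR with no filter and with offsets (adjusted p = 0.15 and 0.0543). It was also lost by DESeq2 (adjusted p = 0.0651). The members' differences followed GC content (Spearman rho of -0.74 over 44 members), and OAS2 and PARP14 were the called ones that passed with offsets for GC and length.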

How the results depend on the processing

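Of all alternative values for single members, 4424 kept their side of the threshold, 197 lost a call and 175 gained a call. Changes of direction between values that were not called are counted among the 4424. The other 2 changed direction with a call in at least 1 of the fits compared. IFITM3 in the difference between guide effects became 0.13 with offsets for GC and length (edgeR, adjusted p = 0.396). OAS1 there became 0.84 without set 1 replicate 1 and replicate 2 of the controls for sgUFL1 (edgeR, adjusted p = 0.006), while leaving out 1 library at a time gave -0.26 to 0.60. In sgUFM1 against set 2, 17 of the 22 higher members passed under every alternative and 18 to 23 were higher. For the 3 lower ones the counts were 0 over 12 libraries and with offsets and 1 with the replicate block.

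In sgUFM1 against the controls for sgUFL1, the counts higher and lower were 9 and 1 with no filter, 5 and 1 by DESeq2, 4 and 2 over 12 libraries, 4 and 0 with offsets, 1 and 0 by limma on FPKM with either pseudocount, and 14 and 1 with offsets and without replicate 2 of the controls. In sgUFM1 against set 1 they were 10 and 1 with no filter, 6 and 1 by DESeq2, and 1 and 0 by limma on FPKM. In set 1 against the controls for sgUFL1 they were 3 and 2 with no filter, 2 and 2 by DESeq2, 6 and 4 over 12 libraries, and 9 and 5 without the 2 libraries above. In set 1 against set 2 they were 9 and 2 with no filter, 4 and 1 by DESeq2, 2 and 0 over 12 libraries or with offsets, and 0 and 0 by limma. In set 2 against the controls for sgUFL1 offsets gave 2 and 5, and in the difference between guide effects 4 and 0. The cause was not tested. The share of all genes called also moved with the setting. For genes higher in sgUFM1 than in the controls for sgUFL1 it was 5.57% in the main fit and 4.33% with offsets. Without replicate 2 of the controls it was 14.2%. Counts given here and below without such a share do not tell a change in members from a change over all genes.

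Leaving out each library in turn gave 19 to 22 higher and 0 to 4 lower in sgUFM1 against set 2, 1 to 11 and 0 to 3 against the controls for sgUFL1, and 0 to 7 and 0 to 4 against set 1. It gave 0 to 2 and 0 to 3 in set 1 against the controls, 2 to 7 and 7 to 16 in set 2 against the controls (7 lower without set 2 replicate 2, 11 without replicate 3), 0 to 17 and 0 to 3 in set 1 against set 2, and 12 to 17 and 3 to 6 in the difference. Deviations from group means correlated from -0.22 to 0.38 between same-numbered libraries. In set 1 against the controls for sgUFL1 the values were 0.37, 0.38 and -0.22 for replicates 1, 2 and 3. The best other-numbered values there were 0.31, -0.19 and 0.37. In the other pairs of groups same-numbered values were -0.09 to 0.17. Whether replicate numbers mark a pairing was not tested. With the replicate block, sgUFM1 against the controls for sgUFL1 gave 8 higher and 0 lower, set 1 against set 2 gave 4 higher, and sgUFM1 against set 2 gave 22 higher and 1 lower. That block also called ISG15 higher in sgUFM1 (0.55, adjusted p = 0.0437 by edgeR), and ISG15 (0.50, adjusted p = 0.00324) and BST2 (0.83, adjusted p = 0.0462) higher in set 2, than in the controls for sgUFL1. At 15342793 to 18033331 counts a library, members with a mean under 1 CPM over 12 libraries (XAF1, RTP4 and IFI27) give no firm comparison.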
